A study of Mus musculus with 4 samples.

Results

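The genes described here are 9 that encode catenins, the catenin-binding protein vinculin and their cadherin partners: Ctnnd1, Ctnna1, Ctnnb1, Ctnnbl1, Vcl, Jup, Cdh1, Cdh2 and Ctnnal1. They are 9 of the 19938 genes that had a probe set with exactly 1 gene symbol, and each was measured by 1 probe set. The family was picked because Ctnnd1, Ctnna1 and Vcl were higher in Cre+ cells, so the differences of all 9 between the groups are a description and carry no test.

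Expression was measured on Affymetrix mouse gene arrays in DN4 thymocytes, the last immature stage of thymic T cell development without CD4 and CD8. The cells were sorted from 2 Cre+ mice (129 and 135), of genotype Ikf/f Rosa26-CreERT2+, and from 2 Cre- mice (131 and 137), of genotype Ikf/f. All 4 mice thus had loxP-flanked Ikzf1, which encodes the zinc-finger protein Ikaros. All were given tamoxifen at 50 mg/kg a day over 4 days, with analysis 24 h after the final dose. Age and sex are not given in the labels. The Cre recombinase was driven from the Rosa26 locus, which is active in most cell types and so is not limited to thymocytes, and the Cre- mice do not carry it, so that effects of the recombinase itself and of the loss of Ikaros cannot be told apart. Each mouse gave 1 array, and the number of arrays limits the precision of every value.

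Cadherins are transmembrane proteins that bind each other between neighbouring cells. Inside the cell p120 catenin, the product of Ctnnd1, binds the cadherin tail close to the membrane and holds the cadherin at the surface. Beta-catenin or its relative plakoglobin binds the end of the tail and recruits alpha-catenin, which binds actin filaments and, under tension, vinculin. Beta-catenin also acts in the nucleus as a cofactor of TCF/LEF factors in the Wnt pathway, which is active in early thymocytes.

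The arrays resembled each other, with medians of the log2 values between 6.85 and 6.88 and Pearson correlations across probe sets between 0.994 and 0.997. Ikzf1 itself was at 12.06 and 11.99 in Cre+ animals, against 12.07 and 12.11 in Cre- animals. Where its probes lie relative to the floxed part was not analysed here, so this value checks nothing. Per the series' design text, Ikaros protein was lost in the sorted Cre+ cells by western blot. Xist was at 12.51 and 5.29 in Cre+ animals and at 12.34 and 4.93 in Cre- animals, so each group held 1 mouse with a high and 1 with a low value (129 and 131 high, 135 and 137 low). The DN4 label was set against marker genes. The pre-TCR chain gene Ptcra was at 9.76 and 9.74 in Cre+ animals and at 9.43 and 9.40 in Cre- animals. Cd3e, a chain of the T cell receptor complex, was at 13.16 and 13.05 in Cre+ animals and at 12.86 and 12.84 in Cre- animals. Il2ra, which encodes the CD25 chain that marks the preceding stage, was at 11.07 and 10.71 in Cre+ animals and at 11.58 and 10.96 in Cre- animals. Of 10 measured genes listed for DN4 thymocytes, which are not limited to that stage, 9 had higher means in Cre+ cells, where 45.9% of all 19938 genes did. In limma's test restricted to probe sets with 1 gene symbol 4 of them rose (Cd3d, Cd3g, Cd3e and Rag1), where 0.953% of all genes passed higher. Cd3d was at 11.93 and 11.71 in Cre+ animals, against 11.20 and 11.12 in Cre- animals (difference 0.66, SE 0.08; limma, adjusted p = 0.00432 in the restricted test). Each SE here and below is from the fit over all probe sets, also where the adjusted p is from the restricted test. Of 6 markers of earlier stages, 5 had lower means, among them Il7r with a difference of -0.44 (SE 0.18) and Cd44 with -0.42 (SE 0.10), which did not pass. The sixth, the Notch target Hes1, rose by 0.91 (SE 0.05; limma, adjusted p = 0.000467 in the restricted test), with 11.25 in both Cre+ animals, against 10.35 and 10.32 in Cre- animals. Genes of both stage lists thus differed between the groups along with the catenin genes, and their part in the differences of the 9 genes was not tested. No shift in stage is read from these lists.

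Among the catenins of the cadherin complex, Ctnnd1 and Ctnna1 were higher in Cre+ cells in every pairing of mice, while Ctnnb1 and Jup differed by 0.06 and 0.14 on the log2 scale. The relatives Ctnnbl1 and Ctnnal1 differed by -0.02 and 0.02. Vcl was higher like Ctnna1, and Cdh1 was lower. Of the 9 genes, 4 had values in Cre+ animals that all lay above those of the Cre- mice, and 1 had values that all lay below. Over all 19938 genes these shares were 16.1% higher and 20.3% lower. Because the family was chosen on this contrast, nothing is read from its count. The median difference was 0.06 over the 9 genes and -0.01 over all genes.

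**Figure D1:**
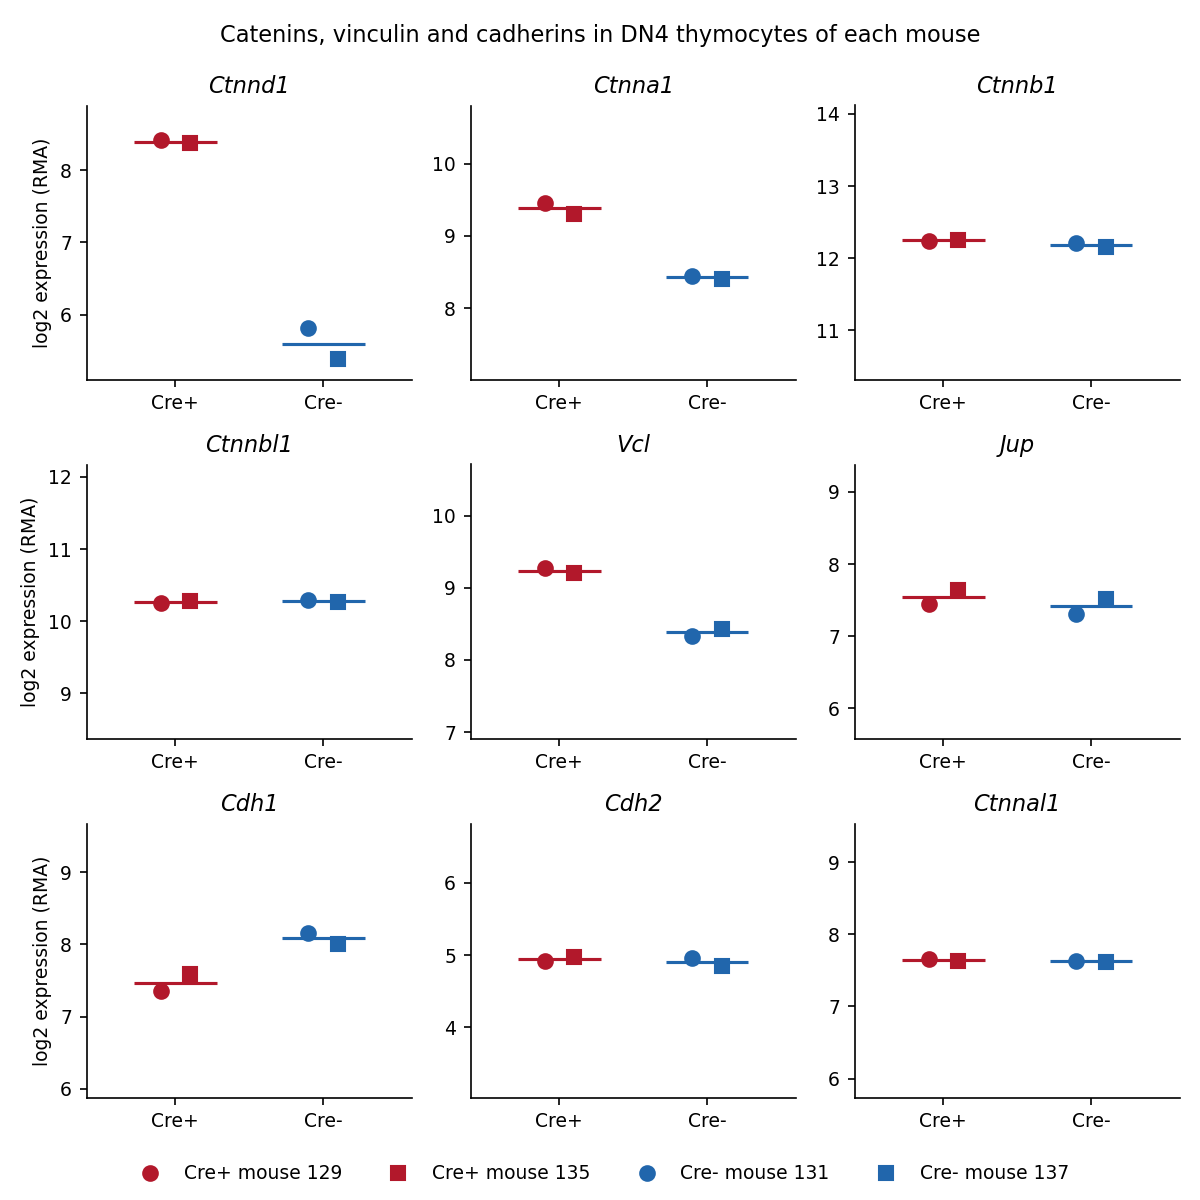
Log2 expression (RMA values, y axis) of each of the 9 genes in the 2 Cre+ mice (red) and the 2 Cre- mice (blue), with a bar at each group mean. All panels span the same number of log2 units, so that the heights of the gaps can be compared. Ctnnd1, Ctnna1 and Vcl are separated upwards and Cdh1 downwards in Cre+ cells.

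Ctnnd1 stood out among the 9. It was at 8.42 and 8.38 in Cre+ animals, against 5.82 and 5.38 in Cre- animals. The 2 Cre+ mice lay within 0.04 of each other and the 2 Cre- mice lay 0.44 apart, and all Cre+ values exceeded all Cre- values. The difference between the group means was 2.80 on the log2 scale (SE 0.17, n = 2 each), or 6.96-fold, the largest positive difference of all 19938 genes. The smallest of the 4 differences between single mice was 2.56 (mouse 135 against mouse 131) and the largest 3.04 (mouse 129 against mouse 137). The gap between the 2 Cre- mice was wider than that of 98.6% of genes, while the gap between the 2 Cre+ mice was wider than that of 30.9%. The value of Cre- mouse 137, 5.38, lay below the 25th percentile of probe set means, 5.41, so the fold rests on a dim Cre- level. How far the Ctnnd1 values lie above background was not analysed here, and the fold is one of RMA values, not of transcript numbers.

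RefSeq places 2 start sites of Ctnnd1 on the minus strand of chromosome 2 in GRCm38.p6. Their windows, 250 bases before to 50 after the start, are shown because this gene carries the largest difference. Capitals mark a match to the E-box CANNTG, the site class of E proteins.
Ctnnd1 upstream start, chr2:84658928-84659227, minus strand: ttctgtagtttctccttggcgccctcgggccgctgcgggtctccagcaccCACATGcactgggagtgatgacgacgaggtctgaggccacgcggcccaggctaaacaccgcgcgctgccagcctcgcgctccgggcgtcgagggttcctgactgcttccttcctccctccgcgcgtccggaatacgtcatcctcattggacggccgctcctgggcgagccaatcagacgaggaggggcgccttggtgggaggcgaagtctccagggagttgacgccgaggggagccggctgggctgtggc
Ctnnd1 downstream start, chr2:84650691-84650990, minus strand: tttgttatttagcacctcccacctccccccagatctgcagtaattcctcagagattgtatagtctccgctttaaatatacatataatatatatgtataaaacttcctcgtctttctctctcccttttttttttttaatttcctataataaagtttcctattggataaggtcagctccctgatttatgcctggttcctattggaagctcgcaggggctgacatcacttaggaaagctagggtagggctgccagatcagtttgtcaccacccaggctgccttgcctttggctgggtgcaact
The upstream window had a GC content of 67.7% with 30 CpG dinucleotides, and the downstream window 42.7% with 3, where the median over all 32851 RefSeq windows was 52.7%. Which of the 2 starts the measured transcripts came from was not analysed here.

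Ctnna1, which encodes alpha-E-catenin, the link between the cadherin complex and actin, was at 9.46 and 9.31 in Cre+ animals, against 8.45 and 8.41 in Cre- animals. All Cre+ values lay above all Cre- values. The difference was 0.96 (SE 0.09), or 1.94-fold, and ranked 67 from the top of all genes. The differences between single mice ran between 0.86 and 1.05.

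Vcl encodes vinculin, an actin-binding protein that joins both alpha-catenin at cadherin junctions and talin at integrin adhesions. It was at 9.27 and 9.20 in Cre+ animals, against 8.34 and 8.42 in Cre- animals. The groups did not overlap, and each pair of replicates lay within 0.09. The difference was 0.86 (SE 0.09), or 1.81-fold, and ranked 87 from the top. The differences between single mice ran between 0.78 and 0.93, a range that overlaps that of Ctnna1.

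The promoter window of Vcl, on the plus strand of chromosome 14, is the only one of the 8 RefSeq windows found for the family that held the core TGGGAA bound by Ikaros. It is shown with that match in capitals.
Vcl start, chr14:20929148-20929447, plus strand: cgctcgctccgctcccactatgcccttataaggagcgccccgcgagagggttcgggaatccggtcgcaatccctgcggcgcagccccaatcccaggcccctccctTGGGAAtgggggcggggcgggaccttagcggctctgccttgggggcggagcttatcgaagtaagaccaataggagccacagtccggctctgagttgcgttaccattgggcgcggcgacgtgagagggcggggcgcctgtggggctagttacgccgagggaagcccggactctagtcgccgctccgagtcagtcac
The match begins 145 bases before the start site. TGGGAA was sought on both strands and occurs in 25.6% of the 32851 windows of the same length. The TCF/LEF core CTTTGA, found in 16.0% of windows, and the Runx core TGTGGT, found in 16.8%, had no match in the 8 windows. The E-box CANNTG, found in 72.3% of windows, had 1 match, in the upstream Ctnnd1 window and 200 bases before its start. No searched motif overlapped another in these windows. The 8 windows belong to 6 of the 9 genes, namely Ctnnd1, Ctnnb1, Ctnnbl1, Vcl, Jup and Ctnnal1. A match is a description of the letters and not a bound site, and these letters say nothing on sites farther away.

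Ctnnb1, the gene of beta-catenin, was at 12.24 and 12.26 in Cre+ animals, against 12.21 and 12.16 in Cre- animals. These groups did not overlap either, but the difference was 0.06 (SE 0.03), or 1.04-fold. Jup, which encodes plakoglobin, the catenin shared by adherens junctions and desmosomes, was at 7.45 and 7.65 in Cre+ animals, against 7.31 and 7.51 in Cre- animals. Its groups overlapped, since mouse 129 lay below mouse 137, and the difference was 0.14 (SE 0.13), beside a gap of 0.19 within the Cre+ group. Between the mice matched on Xist it was 0.14 (129 against 131) and 0.13 (135 against 137).

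The remaining catenin relatives showed smaller differences. Ctnnbl1, whose product is an armadillo-repeat protein of the spliceosome rather than of junctions, was at 10.25 and 10.28 in Cre+ animals, against 10.29 and 10.27 in Cre- animals. Its difference was -0.02 (SE 0.06). Ctnnal1 encodes alpha-catulin, a relative of alpha-catenin and vinculin. It was at 7.66 and 7.63 in Cre+ animals, against 7.63 and 7.62 in Cre- animals, and its groups overlapped with a difference of 0.02 (SE 0.09). Of Ctnna1, Vcl and Ctnnal1, whose products are related in sequence, Ctnna1 and Vcl thus showed higher values and Ctnnal1 overlapping ones.

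The cadherins differed from their catenins. Cdh1, the gene of E-cadherin, was at 7.35 and 7.58 in Cre+ animals, against 8.16 and 8.01 in Cre- animals. All Cre+ values lay below all Cre- values. The difference was -0.61 (SE 0.13), or 1.53-fold lower, and ranked 37 from the bottom of all genes. The smallest of the 4 differences between single mice was -0.42 (mouse 135 against mouse 137) and the widest -0.80 (mouse 129 against mouse 131). Cdh2, the gene of N-cadherin, was at 4.92 and 4.97 in Cre+ animals, against 4.96 and 4.85 in Cre- animals. Its groups overlapped, with a difference of 0.04 (SE 0.08). Its mean over the 4 mice was the 1 of the 9 that lay below the 25th percentile of probe set means, 5.41. The single value of Ctnnd1 in Cre- mouse 137, 5.38, also lay below it.

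**Figure D2:**
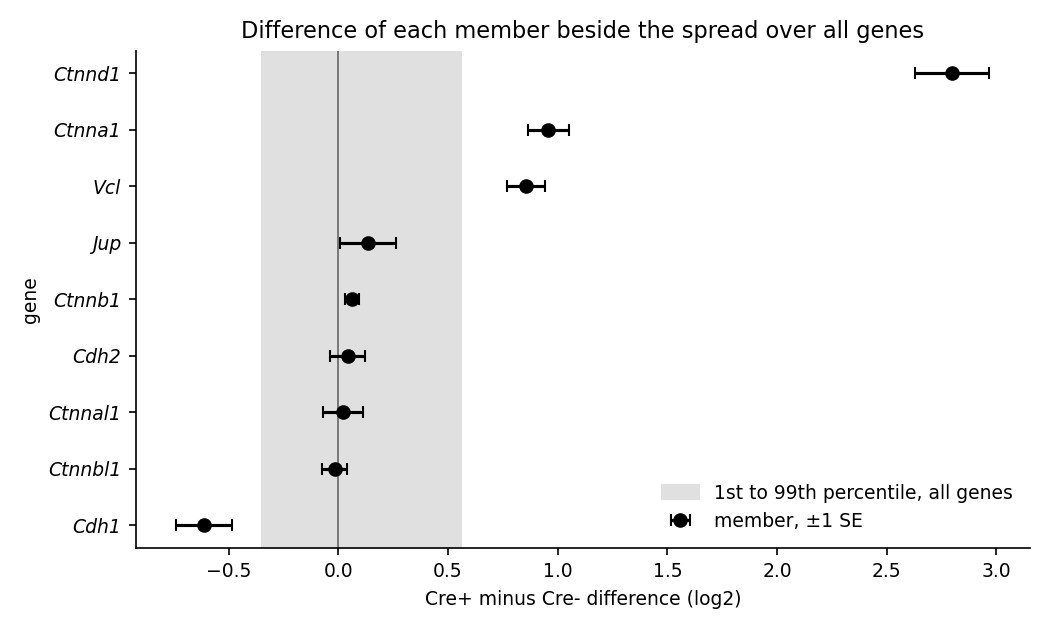
Cre+ minus Cre- difference of each of the 9 genes on the log2 scale (x axis, bars of 1 SE from limma). The grey band runs from -0.35 to 0.56 and holds the genes between the 1st and the 99th percentile of all 19938. Ctnnd1, Ctnna1 and Vcl lie above the band and Cdh1 below it, and the other 5 lie inside.

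E-cadherin is also made by thymic epithelium, so markers of other cells were set beside it. Of 11 epithelial markers, 5 had higher and 6 lower means in Cre+ cells. Their summed linear level was 1627 and 1673 in Cre+ animals and between 1624 and 1707 in Cre- animals. Epcam, the epithelial adhesion molecule gene, was at 7.68 and 8.08 in Cre+ animals, against 8.38 and 8.35 in Cre- animals, with both Cre+ values below both Cre- values, as for Cdh1. Cldn4, a claudin gene of tight junctions, was separated the other way, at 8.18 and 8.35 in Cre+ animals, against 7.92 and 7.74 in Cre- animals, a difference of 0.44 (SE 0.12; limma, adjusted p = 0.134 in the restricted test). The keratin gene Krt18 was also higher in both Cre+ animals, by 0.18 (SE 0.10). Foxn1, the defining factor of thymic epithelium, was at 6.39 and 6.35 in Cre+ animals, against 6.36 and 6.39 in Cre- animals. Markers of endothelium summed to 1183 and 1187 in Cre+ animals and to 1214 and 1263 in Cre- animals. Those of mesenchyme summed to between 1084 and 1236 in Cre+ animals and between 990 and 1078 in Cre- animals. Of the 7 mesenchyme markers, 4 had higher and 3 lower means, with a median difference of 0.00 and the highest for Pdgfrb, 0.43 (SE 0.14). Macrophage and dendritic cell markers summed to 771 and 855 in Cre+ animals and to 694 and 689 in Cre- animals. Of these 11 markers, 9 had higher and 2 lower means, with a median difference of 0.06. Among these 11, Lyz2, the lysozyme gene, rose by 1.04 (SE 0.18; limma, adjusted p = 0.0206 in the test restricted to probe sets with 1 gene symbol), while Csf1r, the defining receptor of macrophages, was at 5.63 and 5.57 in Cre+ animals and at 5.61 and 5.52 in Cre- animals. Lymphoid markers differed as well. All 5 gamma-delta T cell markers had lower means, where 45.9% of all genes had a higher one. Their sums were 942 and 898 in Cre+ animals and 1064 and 1013 in Cre- animals. Of these 5 markers, the Src-family kinase gene Blk fell by 0.51 (SE 0.09; limma, adjusted p = 0.0463 in the restricted test), where 0.296% of all genes passed lower. Natural killer cell markers summed to 5195 and 5005 in Cre+ animals and to 5811 and 5756 in Cre- animals. B cell markers summed to 1474 and 1326 in Cre+ animals and to 1253 and 1232 in Cre- animals. The gamma-delta, natural killer and B cell sums did not overlap between the groups. Neither did those of endothelium, mesenchyme, and macrophages and dendritic cells. The sums of epithelium, erythroid cells and megakaryocytes did overlap. A linear sum follows its brightest gene, which was Gzma (difference -0.19) for natural killer cells and Cd79b (0.25) for B cells. Of the 5 natural killer markers, 2 were separated upwards and 2 downwards, and the list median was 0.00. Of the 5 B cell markers, the other 4 had lower means, and the list median was -0.19. The part of such cells in the differences of Ctnnd1, Ctnna1, Vcl and Cdh1 was not tested, and in bulk RNA fewer cells of a type and less RNA per cell cannot be told apart.

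The genes with the pattern most like the 3 that were higher were sought by the Euclidean distance between values centred on each gene's mean over the 4 mice. Nearest to Ctnnd1 were Dock1, which encodes an exchange factor for Rac (distance 0.49), the interferon-induced gene Ifitm3 (0.81) and Ica1, an islet autoantigen gene (0.85). Nearest to Ctnna1 were Wdfy4 (0.08), Tulp3 (0.08) and Ajuba (0.08), and nearest to Vcl were Tsc22d1 (0.05), the beta-secretase gene Bace1 (0.05) and Cyp4f16 (0.09). Dock1 was at 8.24 and 8.53 in Cre+ animals, against 5.83 and 5.87 in Cre- animals. Since the gap between the groups makes up most of each distance, these are mainly genes with a difference of like size. Distances over 4 arrays are a description.

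**Figure D3:**
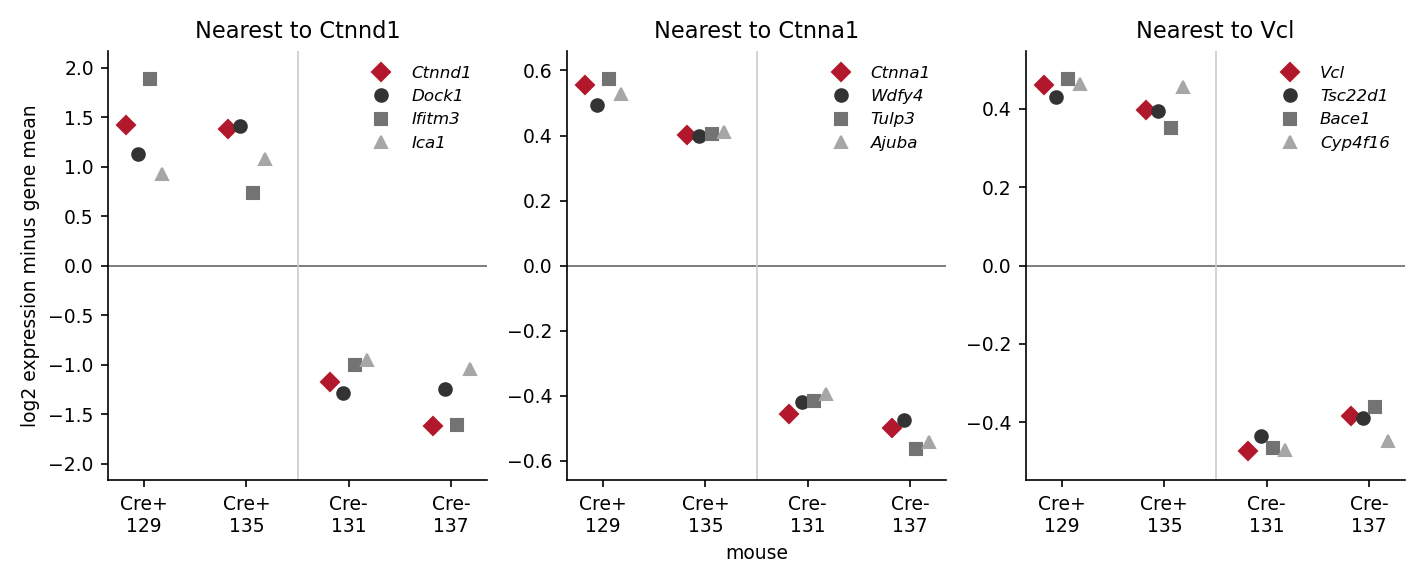
Log2 expression minus the gene's mean over the 4 mice (y axis, with its own scale in each panel) in Cre+ mice 129 and 135 and Cre- mice 131 and 137 (x axis), for Ctnnd1, Ctnna1 and Vcl (red diamonds) and the 3 genes nearest to each. Dock1, Ifitm3 and Ica1 are above 0 in both Cre+ mice, as Ctnnd1 is, and differ from it in size, with Ifitm3 higher in mouse 129 than in mouse 135.

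Whether genes beside the 3 differed too was asked over the 4 nearest measured genes on each side in RefSeq order. None of the 24 neighbours passed limma's adjusted threshold of 0.05 over all probe sets, where 0 of all 35556 did. None passed in the test restricted to probe sets with 1 gene symbol, where 0.953% of all genes passed higher and 0.296% lower. With such shares, 24 genes would rarely hold a call, so nothing is read from this count. An unadjusted p under 0.05 was found for 1 neighbour, against 6.86% of all genes. That gene was Calcrl, a receptor gene beside Ctnnd1, with a difference of -0.32 (SE 0.10), opposite in sign to Ctnnd1 (limma, adjusted p = 0.254 in the restricted test). The immediate neighbours of Ctnnd1 were Tfpi, with a difference of 0.09 (SE 0.12), and Selenoh, with -0.07 (SE 0.08). Around Ctnna1 the differences lay between -0.14 for Sil1 and 0.18 for the immediate early gene Egr1. Around Vcl they lay between -0.09 for Plau, the urokinase gene, and 0.27 for Ndst2.

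**Figure D4:**
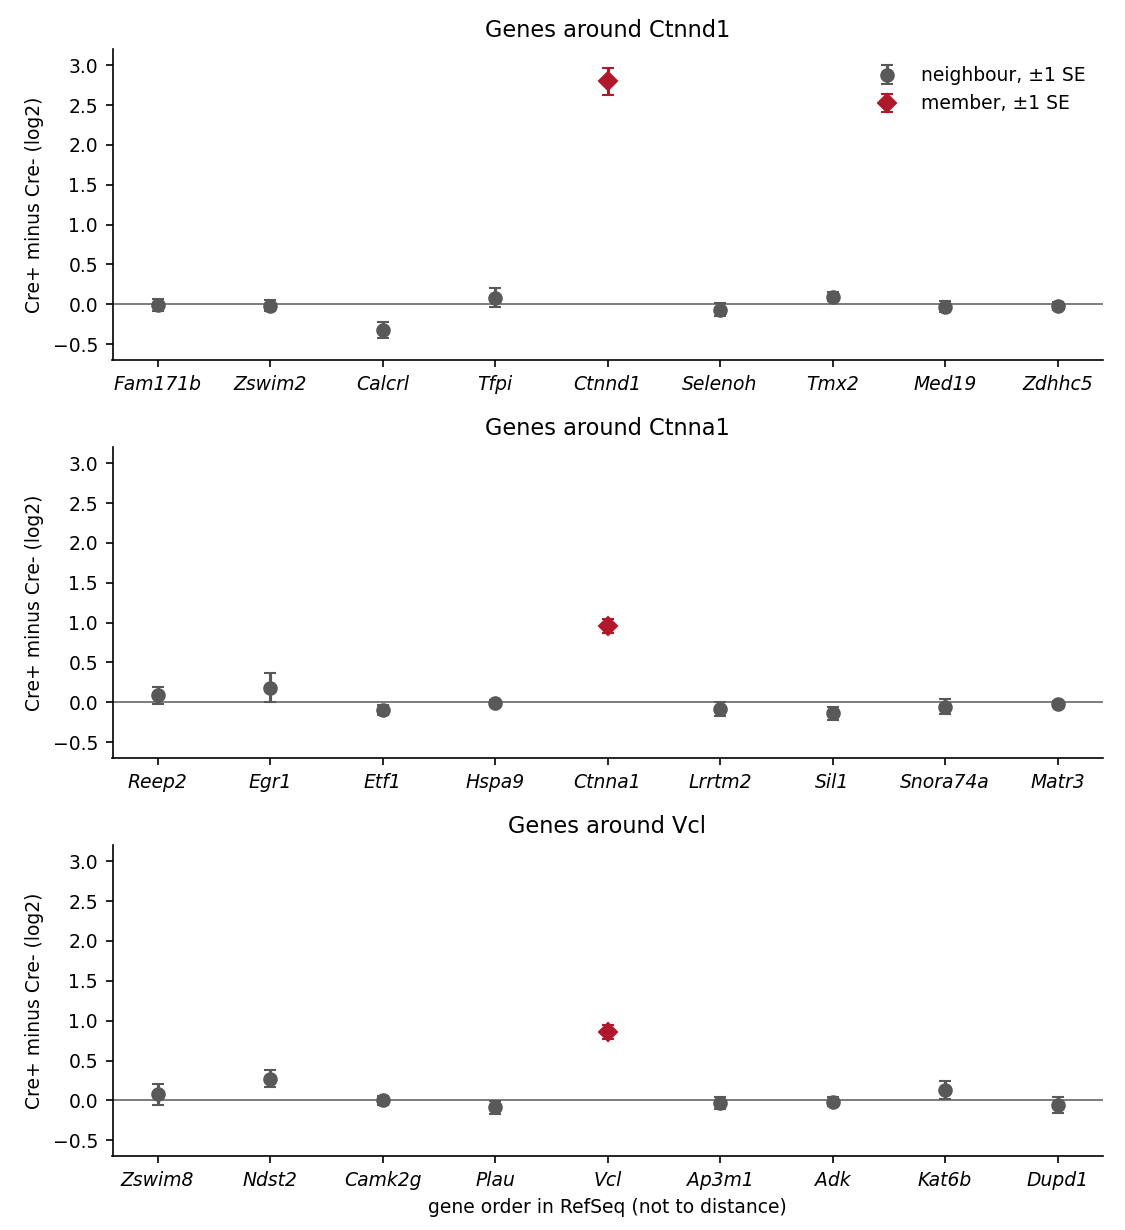
Cre+ minus Cre- difference on the log2 scale (y axis, bars of 1 SE from limma) of Ctnnd1, Ctnna1 and Vcl (red diamonds) and of the 4 nearest measured genes on each side (grey), in RefSeq gene order along the x axis and not to distance. The neighbours lie between -0.32 and 0.27.

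The wider junction and Wnt pathway was described with 12 lists of 227 different genes without the 9, of which 217 were measured. Over all probe sets limma called 0 of the 217 at an adjusted p under 0.05, as it called 0 of all 35556 probe sets (0%), and 18 of the 217 (8.29%) had an unadjusted p under 0.05, against 6.86% of all 19938 genes. In the test restricted to probe sets with 1 gene symbol 3 of the 217 rose (Ajuba, Tns3 and Fyn) and 1 fell (Tes), where 0.953% of all genes passed higher and 0.296% lower. With such shares, 217 genes would hold a few calls, so nothing is read from these counts. With 2 against 2 mice the smallest p of an exact two-sided permutation test is 0.333. The p-values given thus depend on a spread that limma takes partly from the separate mice and partly from the other probe sets. Over all probe sets this spread had 2 residual and 2.99 prior degrees of freedom.

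**Figure D5:**
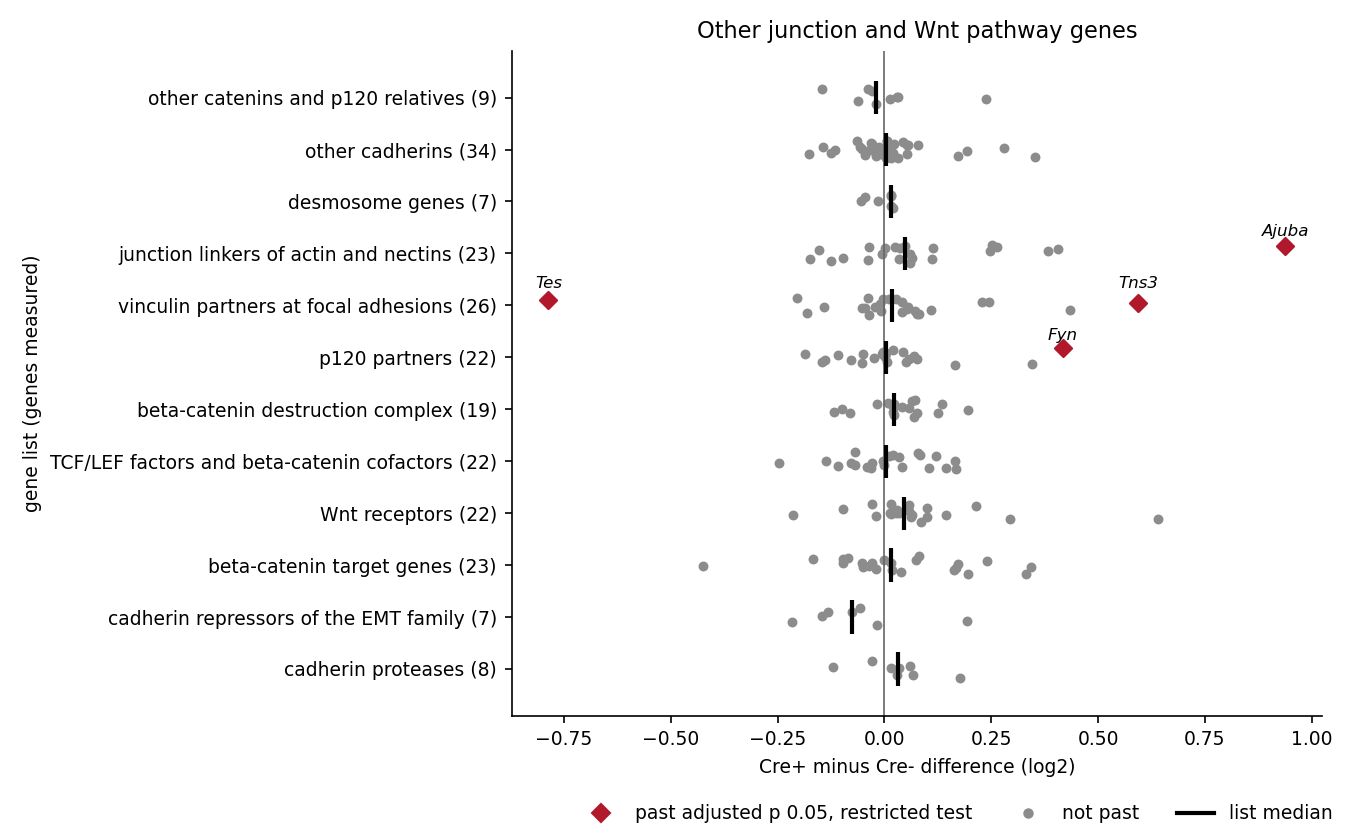
Cre+ minus Cre- difference on the log2 scale (x axis) of each measured gene of the 12 lists (y axis, number measured in brackets), with a black bar at each list's median. Red diamonds mark Ajuba, Tns3, Fyn and Tes, the genes past an adjusted p of 0.05 in the restricted test, and the list medians lie between -0.07 and 0.05.

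Ajuba encodes a LIM protein that binds alpha-catenin at cadherin junctions. It was at 7.13 and 7.01 in Cre+ animals, against 6.21 and 6.06 in Cre- animals, and the groups did not overlap. It rose by 0.94 (SE 0.11), close to the 0.96 of Ctnna1 (limma, adjusted p = 0.00432 in the restricted test and 0.159 over all probe sets). The restricted call held without each mouse in turn, with differences between 0.86 and 1.01. The other 22 measured junction linkers did not pass. Among them Actn1, which encodes the actin crosslinker alpha-actinin 1, a partner of both alpha-catenin and vinculin, was at 11.56 and 11.38 in Cre+ animals, against 10.96 and 11.18 in Cre- animals, a difference of 0.41 (SE 0.10; limma, adjusted p = 0.0723 in the restricted test). The median of this list was 0.05.

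Of 26 measured partners of vinculin at focal adhesions, 1 rose and 1 fell in the restricted test, and the median was 0.02. Tns3, which encodes the integrin-binding tensin 3, was at 9.38 and 9.19 in Cre+ animals, against 8.68 and 8.71 in Cre- animals. It rose by 0.59 (SE 0.10; limma, adjusted p = 0.0256), and without mouse 129 the difference was 0.50 (adjusted p = 0.166). Tes, which encodes the LIM protein testin, was at 7.46 and 7.69 in Cre+ animals, against 8.24 and 8.48 in Cre- animals. It fell by 0.79 (SE 0.14; limma, adjusted p = 0.0252), and without mouse 129 the difference was -0.67 (adjusted p = 0.109).

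Of 22 measured partners of p120 catenin, Fyn, a Src-family kinase, rose by 0.42 (SE 0.06; limma, adjusted p = 0.0320 in the restricted test), and the median was 0.00. Fyn was at 10.12 and 10.06 in Cre+ animals, against 9.68 and 9.66 in Cre- animals. Its difference was 0.39 with mouse 129 left out (limma, adjusted p = 0.188) and 0.45 with mouse 135 left out (adjusted p = 0.0674). For Tns3, Tes and Fyn the calls were thus lost. The groups of these 3 genes did not overlap, so leaving out a mouse could not reverse their direction. Rac1, the small GTPase that p120 catenin acts on, was at 12.63 and 12.64 in Cre+ animals, against 12.55 and 12.57 in Cre- animals, a difference of 0.08 (SE 0.03; limma, adjusted p = 0.446).

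The closest relatives of the family did not pass. Among 9 other catenins and p120 relatives (median -0.02), Pkp4, a p120 relative of junctions, differed by 0.24 (SE 0.07) and Arvcf, another, by -0.15 (SE 0.09). Among 34 other cadherins (median 0.00), the protocadherin gene Pcdh7 differed by 0.35 (SE 0.11) and the calsyntenin gene Clstn3 by 0.28 (SE 0.10). Among 7 desmosome genes (median 0.01), Dsc2 differed by -0.06 (SE 0.07) and Dsp, the desmoplakin gene, by -0.05 (SE 0.13). Among 7 repressors of cadherin genes (median -0.07), Snai1 differed by 0.19 (SE 0.09) and Twist1 by -0.15 (SE 0.10). Among 8 proteases that cut cadherins (median 0.03), Adam17 differed by -0.12 (SE 0.07) and Adam9 by 0.18 (SE 0.14). A difference that missed the threshold with 2 mice a group is not shown to be absent.

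The genes that act with beta-catenin in Wnt signalling did not pass either. Higher means in Cre+ cells were found for 18 of 22 Wnt receptors and 15 of 19 genes of the beta-catenin destruction complex, against 45.9% of all genes. These were the most one-sided of the 12 lists upwards. The count was 11 of 22 for TCF/LEF factors and cofactors, 12 of 23 for beta-catenin targets and 1 of 7 for cadherin repressors. Of all 217 listed genes, 128 had higher means, and nothing is read from these counts. Among the Wnt receptors (median 0.05), Kremen1, a receptor of Wnt inhibitors, differed by 0.30 (SE 0.06; limma, adjusted p = 0.0927 in the restricted test). Fzd7, a frizzled receptor gene, was at 8.06 and 8.18 in Cre+ animals, against 7.25 and 7.70 in Cre- animals, a difference of 0.64 (SE 0.17; limma, adjusted p = 0.111). Within the destruction complex (median 0.02), the kinase gene Gsk3a differed by -0.12 (SE 0.05) and the scaffold gene Axin2 by 0.19 (SE 0.09). Among 22 TCF/LEF factors and cofactors (median 0.00), the co-repressor gene Tle4 differed by -0.25 (SE 0.09) and Bcl9l by 0.16 (SE 0.09). Among 23 target genes of beta-catenin (median 0.02), Cd44 differed by -0.42 (SE 0.10; limma, adjusted p = 0.0803) and the cyclin D1 gene Ccnd1 by 0.33 (SE 0.09; adjusted p = 0.202). Axin2, the target most used as a readout of the pathway, was at 7.67 and 7.63 in Cre+ animals, against 7.45 and 7.46 in Cre- animals. These groups did not overlap, as was so upwards for 16.1% of all genes, and Axin2 did not pass (limma, adjusted p = 0.605 in the restricted test).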

How the data were processed

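Total RNA of sorted DN4 thymocytes was labelled with biotin and hybridised to arrays, per the labels' protocols. The authors deposited 1 log2 value for each probe set and mouse, computed by RMA according to the submitters' processing notes. Its version, any filter and the build are not given here. Values from 3.14 to 14.4 show the log2 scale. Titles gave each mouse's Cre status. The treatment text is the same for all 4 samples and names only the Cre+ genotype.

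Gene names come from the platform annotation, which gives 1 gene symbol for 21789 of 35556 probe sets. The probe set with the highest mean stood for a gene. Groups were compared with limma 3.58.1 in R 4.3.3 (lmFit, eBayes with an intensity trend, Benjamini-Hochberg adjustment) over all probe sets. The restricted test used only probe sets with 1 gene symbol and estimated the spread anew from them. Its SEs are not the ones printed beside its adjusted p-values, which are from the fit over all probe sets. For Ctnnd1 the SE was 0.17 over all probe sets and 0.14 in the restricted fit. There were 2 residual degrees of freedom. The tests were run on simulated data with known changes first.

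The family, the lists and the rules were chosen with earlier results of these data known. Named were the 9 genes, Ikzf1, list genes past the threshold in either test plus the 2 with the smallest p in each list, the 3 nearest genes by pattern and the neighbours. Markers and Xist were named beside the results they touch. Promoter windows are from RefSeq (GRCm38.p6). No sample column was left unused.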

Additional observations from a re-analysis of the deposited data

How the results depend on the processing

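The differences of Ctnnd1, Ctnna1, Vcl and Cdh1 kept their direction under all 15 alternatives, which for most of these was fixed in advance. Their groups did not overlap, so leaving out a mouse could not reverse a sign. Alternatives that changed only the probe sets tested, the variance model or the block left the values of these genes as they were. Leaving out each mouse gave 2.58 to 3.02 for Ctnnd1, 0.88 to 1.03 for Ctnna1, 0.81 to 0.90 for Vcl and -0.73 to -0.50 for Cdh1, and the other alternatives gave 2.80 to 2.81, 0.95 to 0.97, 0.85 to 0.87 and -0.62 to -0.60. Cdh2 had no value with dim probe sets left out at the 25th percentile or the median, and was -0.01 without mouse 137.

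The number of probe sets called by limma was 0 over all probe sets. Each set of probe sets had its own estimate of the spread, and the number called did not follow the number tested. It was 10 with the arrays centred on 1 median. It was 25 among the 26667 probe sets at or above the 25th percentile and 80 among the 17778 at or above the median. It was 266 among the 21789 with 1 gene symbol. It was 0 with each mouse left out and under the other alternatives. Among pathway genes the calls went to 3 higher and 1 lower with 1 gene symbol only, and to 0 under all other alternatives. Leaving out each mouse in the restricted test was added after the data were seen. List medians moved beyond the spread in 6 cases. They were -0.04 for desmosome genes without mouse 137 (0.01 over all mice), -0.02 without mouse 131 and 0.09 without mouse 137 for the destruction complex (0.02), -0.0007 without mouse 129 and 0.06 without mouse 135 for proteases (0.03), and 0.12 for beta-catenin targets with probe sets at or above the median (0.02).

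No paired analysis was possible because the labels give no number shared by mice of both groups, but each group held 1 mouse with high and 1 with low Xist, and this was added as a block after the data were seen. With 1 residual degree of freedom, limma then called 0 over all probe sets and 565 in the restricted test, against 266 without the block. Of the pathway genes 6 rose (Ajuba, Actn1, Trip6, Tns3, Fyn and Fzd7) and 2 fell (Tes and Cd44) in that restricted test, against 3 and 1. The differences were those without the block. Over all probe sets the SE fell for Ctnnd1 (0.17 to 0.13) and Jup (0.13 to 0.10). It rose for Vcl (0.086 to 0.097), Cdh1 (0.126 to 0.133) and Ctnnb1 (0.034 to 0.041). It also rose for Ctnnbl1 (0.057 to 0.069) and Ctnnal1 (0.092 to 0.098), and by less for Ctnna1 (0.0919 to 0.0927) and Cdh2 (0.0790 to 0.0795). Signal over background was not analysed here, which limits the folds of dim genes.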
